A study of Arabidopsis thaliana with 42 samples.

Results

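The loci described here are 389 annotated transposable elements (TEs) of Arabidopsis thaliana whose transcripts were close to absent in the ddm1 mutant. They were chosen from the measured values: of the 1936 TE loci with a transposon identifier in a table of 25069 loci, those with a mean under 1 CPM (counts per library, scaled to a common library total) over the 3 ddm1 libraries were taken, which is 20.1% of the TE loci. Low values in ddm1 are therefore the way the loci were picked and not a result, and every value set against ddm1 below is a description without a test. The other 1547 TE loci had a ddm1 mean of 1 CPM or more.

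DDM1 is a chromatin remodeller that DNA methyltransferases need to reach heterochromatic TEs, and many TEs lose methylation and are transcribed in its absence. TEs can also be held by RNA-directed DNA methylation, in which RNA polymerase IV (largest subunit NRPD1) makes the precursors of small interfering RNAs and RNA polymerase V (largest subunit NRPE1) makes the scaffold transcripts on which these RNAs act. CMT2, a chromomethylase, adds methyl groups to cytosines in contexts other than CG and acts mostly on long TEs in heterochromatin.

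The study asked how the CMT2 pathway and RNA-directed DNA methylation interact. PolyA RNA was sequenced from 2-week-old seedlings, grown at 22 °C with 16 h of light and 8 h of dark after 7 days of cold as seed, of 4 genotypes with 3 libraries each: the ddm1 single mutant and the double mutants ddm1nrpd1, ddm1nrpe1 (spelled ddm1npre1 in the sample labels) and ddm1cmt2. All 4 genotypes carry the ddm1 mutation, and the labels of the RNA libraries do not name the alleles. The series lists no RNA libraries of wild type or of the other single mutants, so nothing below says how these loci behave with DDM1 present. The labels do not say whether the 3 libraries of a genotype came from separate plants or cultures, so the p-values measure the spread between these libraries, which may be technical.

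Library totals ran from 7842329 to 10160025 counts in ddm1, from 14912871 to 24788784 in ddm1nrpd1, from 16348102 to 18792851 in ddm1nrpe1 and from 10838313 to 18131394 in ddm1cmt2. All TE loci together took 6.02%, 5.60%, 6.69% and 4.99% of the counts in the same order of genotypes. The seedling label was checked against markers: the summed level of 4 leaf genes lay between 42819 and 47912 CPM in the ddm1cmt2 libraries and between 26003 and 34652 CPM in the other 9, none of 3 seed storage genes was listed, and the summed root markers (5 of 5 listed) lay at 70.8 to 94.2 CPM in ddm1 and 71.4 to 90.4 CPM in ddm1cmt2, but at 24.6 to 35.8 CPM in ddm1nrpd1 and 32.0 to 33.8 CPM in ddm1nrpe1. The only listed pollen gene of 3 (GEX2) lay between 0.992 and 2.49 CPM, and the only listed flower gene of 3 (AG) between 0 and 2.02 CPM. Plastid loci took 1.75% of the counts in ddm1 and 0.870% in ddm1cmt2, but 0.223% in ddm1nrpd1 and 0.232% in ddm1nrpe1. The root sum and the plastid share thus set ddm1nrpd1 and ddm1nrpe1 below the other genotypes, and the leaf sum set ddm1cmt2 above them. In ddm1, ddm1nrpd1, ddm1nrpe1 and ddm1cmt2, the leaf gene LHCB1.3 had means of 8545, 7832, 9454 and 16689 CPM. LHCB2.1 had 1614, 1622, 1997 and 3921 CPM. The other leaf genes differed less, at 15849, 14333, 13000 and 16263 CPM (RBCS1A) and 7740, 7498, 6222 and 8642 CPM (RCA). Of the root markers, only NRT2.1, a nitrate transporter gene, did not follow the sum. It had means of 0.432, 1.37, 2.21 and 3.51 CPM in ddm1, ddm1nrpd1, ddm1nrpe1 and ddm1cmt2. The others had lower means in ddm1nrpd1 and ddm1nrpe1 than in ddm1 and ddm1cmt2, by unlike amounts. EXPA7, a root hair expansin gene, had 9.95, 0.0347, 4.89 and 9.91 CPM in the same order of genotypes. The part of these markers in the results was not tested. In whole seedlings, fewer cells that transcribe a TE and less TE RNA per cell cannot be told apart.

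Together the loci were about as low in ddm1cmt2 as in ddm1, and took several times more of the counts in ddm1nrpd1 and ddm1nrpe1. The 389 loci took 0.0177%, 0.0179% and 0.0177% of the counts in the 3 ddm1 libraries, and 0.0161%, 0.0176% and 0.0221% in the 3 ddm1cmt2 libraries. The shares were 0.0939%, 0.0916% and 0.0844% in ddm1nrpd1, and 0.131%, 0.124% and 0.125% in ddm1nrpe1. All ddm1nrpe1 libraries lay above all ddm1nrpd1 libraries, and both lay above every ddm1cmt2 library. The group means were 0.0178% ± 0.000106 (SD, n = 3) in ddm1 and 0.0186% ± 0.00313 in ddm1cmt2, against 0.0900% ± 0.00493 in ddm1nrpd1 and 0.126% ± 0.00367 in ddm1nrpe1.

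The same picture held for the middle locus of the list. Levels from here on are CPM scaled by TMM, a normalisation that sets the bulk of the loci equal between libraries. The median over the 389 loci was 0.332, 0.373 and 0.384 CPM in the ddm1 libraries and 0.302, 0.302 and 0.450 CPM in the ddm1cmt2 libraries. It was 1.49, 1.34 and 1.31 CPM in the ddm1nrpd1 libraries and 1.63, 1.59 and 1.51 CPM in the ddm1nrpe1 libraries. Over group means, the middle 50% of the loci ran from 0.194 to 0.680 CPM in ddm1 and from 0.147 to 0.746 CPM in ddm1cmt2, but from 0.828 to 2.53 CPM in ddm1nrpd1 and from 0.931 to 3.35 CPM in ddm1nrpe1. The highest mean of any of these loci was 26.2 CPM in ddm1nrpd1, 43.6 CPM in ddm1nrpe1 and 3.76 CPM in ddm1cmt2. CPM is not divided by locus length, and lengths were not used here, so a higher value of one locus than another may come from a longer element.

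**Figure D1:**
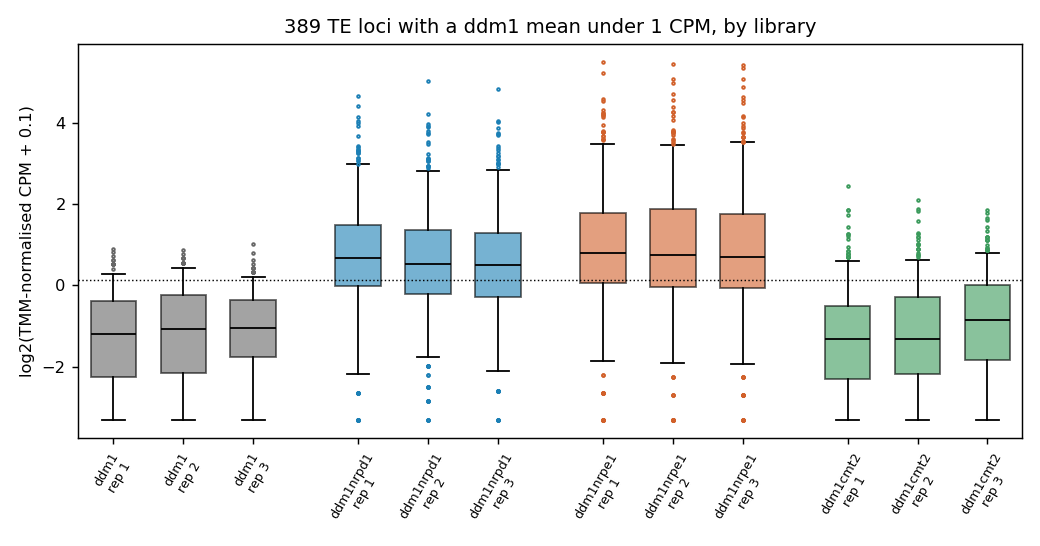
Levels of the 389 TE loci in each of the 12 libraries, as log2(TMM-normalised CPM + 0.1) on the vertical axis. Boxes span the quartiles with the median as a line, and whiskers end at a fixed low and a fixed high percentile of the loci. Points are single loci beyond the whiskers, and the dotted line marks 1 CPM. The boxes of the 3 ddm1nrpd1 and the 3 ddm1nrpe1 libraries sit above those of the ddm1 libraries, which chose the loci, and above those of the ddm1cmt2 libraries.

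A mean of at least 1 CPM was reached by 261 of the 389 loci (67.1%) in ddm1nrpd1, where 92.8% of the whole table reached it. In ddm1nrpe1 282 loci (72.5%) did so, against 92.6% of the table, and in ddm1cmt2 52 loci (13.4%), against 91.7% of the table. A mean of at least 10 CPM was reached by 9 loci in ddm1nrpd1, 26 in ddm1nrpe1 and 0 in ddm1cmt2. The commonest pattern was a mean of at least 1 CPM in ddm1nrpd1 and ddm1nrpe1 but not in ddm1cmt2, which 191 loci (49.1%) had. A further 62 loci reached it in ddm1nrpe1 alone, 34 in ddm1nrpd1 alone and 12 in ddm1cmt2 alone. It was reached in all 3 double mutants by 25 loci, in ddm1nrpd1 and ddm1cmt2 by 11, in ddm1nrpe1 and ddm1cmt2 by 4, and in none by 50.

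The deposited table bears on these counts. Of its loci, 24488 (97.7%) had at least 1 CPM in at least 3 of the 12 libraries, and 340 of the 389 loci (87.4%) did. The sources used here do not say how loci were selected for the table, and a locus that is listed and low in ddm1 tends to be higher in another genotype. The listing does not say in which one. Of the 1182 protein-coding loci with a ddm1 mean under 1 CPM, 40.4%, 42.3% and 38.7% reached 1 CPM in ddm1nrpd1, ddm1nrpe1 and ddm1cmt2. Of the 234 pseudogene loci with a ddm1 mean under 1 CPM, 68.8%, 74.4% and 11.97% did so, an order like that of the TE loci. Annotated pseudogenes may overlap TEs and share their reads. The shares of the other TE loci were 94.8%, 93.7% and 92.2%.

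**Figure D2:**
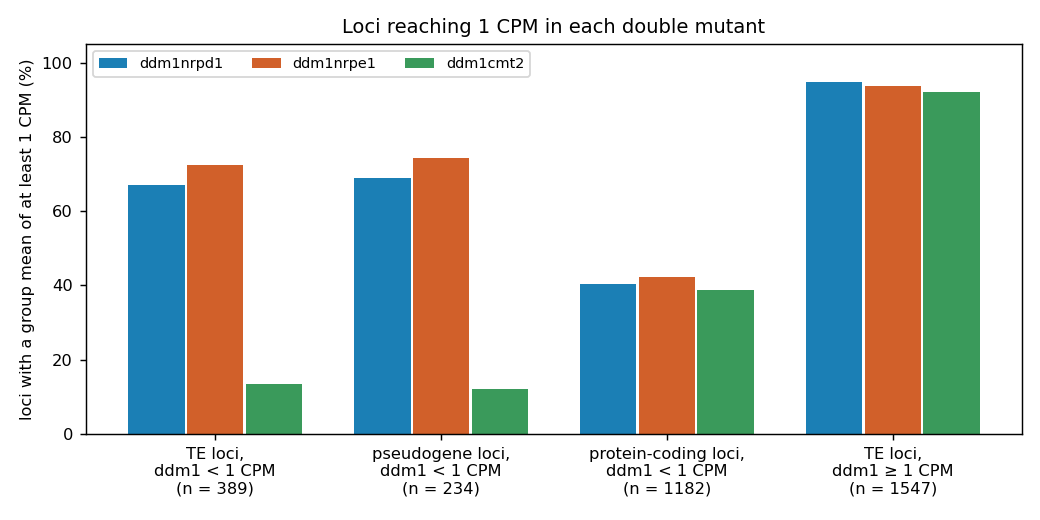
Share of loci (vertical axis, %) whose mean over 3 libraries was at least 1 TMM-normalised CPM in each double mutant, for the 389 TE loci and for 3 other sets of loci named under the bars. The bars for ddm1cmt2 are short for the TE and pseudogene loci that were low in ddm1 (13.4% and 11.97%), and the 3 bars are close to each other for the protein-coding loci that were low in ddm1.

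Counts of libraries above ddm1 follow from the choice of loci in part, and nothing is read from them. All 3 ddm1nrpd1 libraries lay above all 3 ddm1 libraries at 277 of the 389 loci, while 28.9% of all loci in the whole table did so. For ddm1nrpe1 the number was 291 of the 389, beside 29.9% of all loci in the table. For ddm1cmt2 it was 48 of the 389, beside 22.4% of all loci in the table. Around the threshold, AT3TE57565 and AT4TE19315 (both with a deposited ddm1 mean of 0.993 CPM) and AT5TE42435 (0.999 CPM) were the last loci taken, and AT3TE86800 (1.00 CPM), AT3TE61070 and AT3TE63400 (both 1.01 CPM) the first left out. In ddm1nrpd1, ddm1nrpe1 and ddm1cmt2, the last loci taken had means of 3.03, 3.15 and 1.47 CPM (AT3TE57565), 1.22, 0.941 and 1.23 CPM (AT4TE19315) and 8.37, 3.04 and 0.318 CPM (AT5TE42435). The first loci left out had 2.53, 1.62 and 1.34 CPM (AT3TE86800), 0.606, 1.21 and 1.14 CPM (AT3TE61070) and 1.50, 4.51 and 1.01 CPM (AT3TE63400).

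The rule that chose the loci did not use the double mutants. The listing of loci in the deposited table may have used them, and the filter on low counts did. A listed locus low in ddm1 tends to be higher in some double mutant, so part of the calls below may follow from the listing. The double mutants were compared with each other by edgeR's quasi-likelihood test, fitted over all loci of the 9 double-mutant libraries with Benjamini-Hochberg adjustment. A locus is called when its adjusted p is under 0.05. A filter on low counts left 24745 loci, among them 354 of the 389. The remaining 35 were too low in the double mutants to be tested. The comparisons of ddm1nrpd1 and of ddm1nrpe1 with ddm1cmt2 share the 3 ddm1cmt2 libraries.

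Against ddm1cmt2, most of the loci were higher in each polymerase mutant. In ddm1nrpd1, 255 loci were higher than in ddm1cmt2, which is 65.6% of the 389, beside 25.2% of all tested loci. In the other direction, 15 loci were higher in ddm1cmt2 (3.86% of the 389, beside 24.2% of all tested loci). In ddm1nrpe1, 283 loci were higher than in ddm1cmt2 (72.8% of the 389, beside 27.9% of all tested loci). In the other direction, 16 were higher in ddm1cmt2 (4.11% of the 389, beside 26.4% of all tested loci). Without a count filter, the median log2 fold change over 388 of the loci was 2.16 for ddm1nrpd1 over ddm1cmt2 and 2.59 for ddm1nrpe1 over ddm1cmt2, while the medians over all loci were both 0.00. With loci at 0 counts set to their bound, the medians of the 388 loci were 2.12 and 2.57. The counts called without plastid and mitochondrial loci were 255 and 15 for ddm1nrpd1, and 282 and 16 for ddm1nrpe1.

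Other sets of loci are given beside these as a description, with no test between sets. Of the other TE loci, 35.9% were higher in ddm1nrpd1 and 39.0% higher in ddm1nrpe1 than in ddm1cmt2. Of the pseudogene loci with a ddm1 mean under 1 CPM, 66.2% and 72.6% were higher. Of the protein-coding loci with a ddm1 mean under 1 CPM, 18.1% and 23.0% were higher.

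The loci with the most counts in the polymerase mutants held at most 2.16 CPM in any ddm1 or ddm1cmt2 library. AT1TE43225, on chromosome 1, stood at 17.7, 32.5 and 28.3 CPM in ddm1nrpd1 and at 18.1, 31.6 and 40.6 CPM in ddm1nrpe1. Its ddm1cmt2 libraries held 0.201, 0.363 and 0.0901 CPM, and its ddm1 libraries 0.221, 0.373 and 0.192 CPM. Every library of the polymerase mutants lay above every other library, and the ddm1nrpd1 and ddm1nrpe1 libraries overlapped. The log2 fold change over ddm1cmt2 was 6.74 ± 0.58 (SE; adjusted p = 1.9e-05) in ddm1nrpd1 and 6.94 ± 0.58 (adjusted p = 1.4e-05) in ddm1nrpe1, and without ddm1cmt2 replicate 2 it was 7.45 and 7.65. AT2TE22245 held 21.0, 18.6 and 16.2 CPM in ddm1nrpd1 and 18.7, 26.1 and 29.4 CPM in ddm1nrpe1, against 0.804, 1.03 and 2.16 CPM in ddm1cmt2. Its polymerase mutant libraries overlapped each other and lay far above those of ddm1cmt2, with log2 fold changes of 3.82 ± 0.28 (adjusted p = 8.2e-07) and 4.23 ± 0.28 (adjusted p = 2.9e-07).

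AT1TE52795 held 16.3, 13.7 and 14.4 CPM in ddm1nrpd1, 18.7, 17.8 and 15.8 CPM in ddm1nrpe1 and 0.905, 0.665 and 1.08 CPM in ddm1cmt2. The polymerase mutants overlapped, and each was higher than ddm1cmt2 (log2 fold changes of 4.10 ± 0.19 and 4.34 ± 0.19, adjusted p = 4.9e-09 and 2.1e-09). AT5TE44310 was the only one of the loci with the most counts whose ddm1nrpd1 libraries (25.0, 14.8 and 16.3 CPM) all lay above its ddm1nrpe1 libraries (13.7, 13.3 and 9.43 CPM). Its ddm1cmt2 libraries held 0.503, 0.242 and 0.360 CPM. The log2 difference of ddm1nrpd1 from ddm1cmt2 was 5.71 ± 0.35 (adjusted p = 9.9e-08), while that from ddm1nrpe1 was 0.62 ± 0.20 (adjusted p = 0.031) and missed the threshold when ddm1nrpd1 replicate 1 (0.36), ddm1nrpe1 replicate 2 (0.69) or ddm1nrpe1 replicate 3 (0.48) was left out.

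Several loci had no count in any ddm1cmt2 library, so their folds are lower bounds, taken as the mean of the higher genotype over a floor of 3 counts over the lower group (0.0798 CPM in ddm1cmt2). AT2TE69490 held 2.26, 3.41 and 2.69 CPM in ddm1nrpd1 and 2.57, 2.19 and 1.72 CPM in ddm1nrpe1. It was at least 34.9-fold higher in ddm1nrpd1 (adjusted p = 4.2e-06) and at least 27.1-fold higher in ddm1nrpe1 (adjusted p = 8.6e-06) than in ddm1cmt2. AT2TE27505, with 2.67, 3.03 and 2.30 CPM in ddm1nrpd1 and 2.86, 3.07 and 2.48 CPM in ddm1nrpe1, was higher by at least 33.4-fold in ddm1nrpd1 and at least 35.1-fold in ddm1nrpe1 (adjusted p = 1.8e-06 and 1.5e-06). In both loci the polymerase mutants overlapped and no ddm1cmt2 library held a read. The bounds of AT3TE49545 were 24.3-fold and 14.1-fold, those of AT1TE45355 15.6-fold and 17.7-fold and those of AT1TE42490 22.5-fold and 12.8-fold for ddm1nrpd1 and ddm1nrpe1, in that order.

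Other loci had 1 to 3 counts in ddm1cmt2. The ratios of their summed counts, each over its TMM-scaled library totals, are given with a 95% interval that covers counting error only. AT5TE41315 held 5.47, 8.52 and 8.99 CPM in ddm1nrpd1 and 4.61, 11.01 and 10.1 CPM in ddm1nrpe1, with 0, 0 and 0.180 CPM in ddm1cmt2. The ratio to ddm1cmt2 was 146 (40.1 to 1208) in ddm1nrpd1 and 163 (44.8 to 1347) in ddm1nrpe1 (adjusted p = 2.4e-05 and 1.8e-05). Its fitted log2 fold changes of 6.98 and 7.14 were 10.06 and 10.22 without ddm1cmt2 replicate 3, and 6.23 and 6.39 without ddm1cmt2 replicate 2. AT3TE51910 held 1.37, 5.72 and 9.45 CPM in ddm1nrpd1 and 10.4, 19.1 and 24.9 CPM in ddm1nrpe1, with 0, 0.121 and 0 CPM in ddm1cmt2. The libraries of each polymerase mutant spread widely at this locus and all lay above those of ddm1cmt2, with a ratio of 345 (95.3 to 2855) for ddm1nrpe1 (adjusted p = 0.0006). The fitted log2 fold change of 8.23 was 11.24 without ddm1cmt2 replicate 2, which held the only counts of that genotype.

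**Figure D3:**
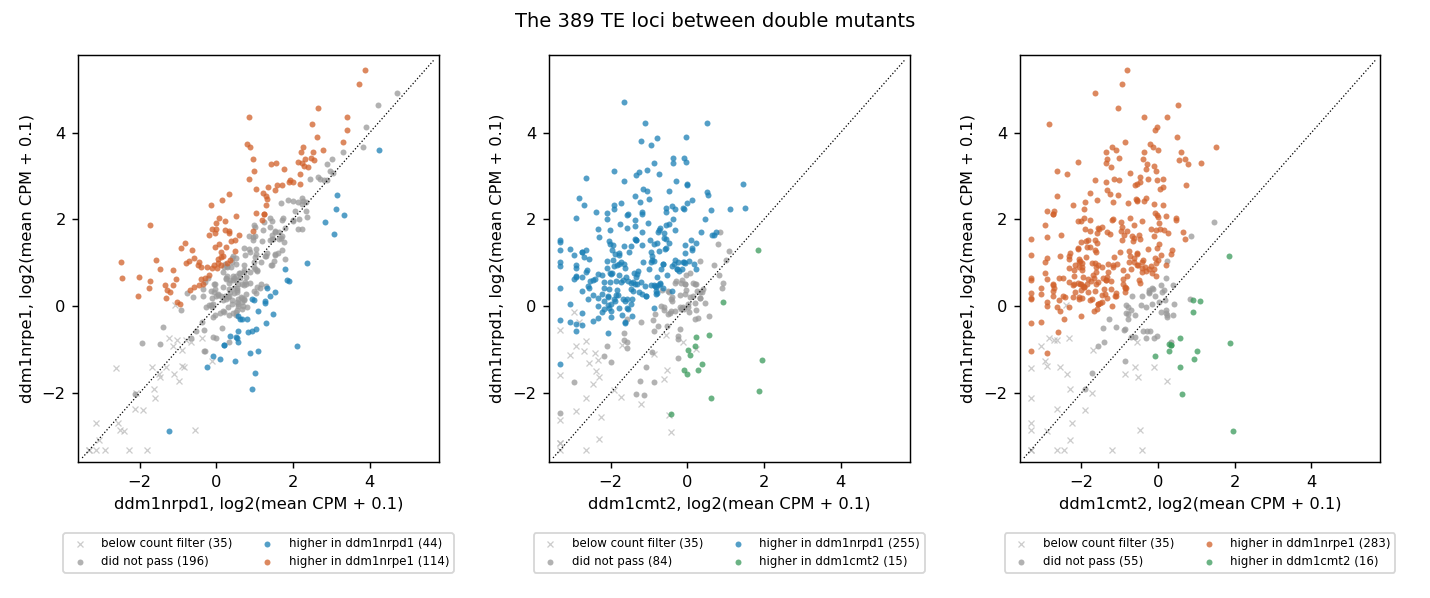
Mean levels of the 389 TE loci in each pair of double mutants, both axes as log2(mean TMM-normalised CPM + 0.1), 1 point per locus; colours mark loci called at an adjusted p under 0.05 with the higher genotype, grey points did not pass, crosses were below the count filter, and the dotted line marks equal levels. In the panels with ddm1cmt2 most points lie above the line (255 and 283 called), and in the panel of ddm1nrpd1 and ddm1nrpe1 the points lie along it, with 44 called below and 114 above.

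The 2 polymerase mutants differed from each other at fewer of the loci. Of the 354 tested, 114 were higher in ddm1nrpe1 (29.3% of the 389, beside 17.8% of all tested loci) and 44 were higher in ddm1nrpd1 (11.3%, beside 16.8% of all tested loci). Among the other TE loci, 28.4% were higher in ddm1nrpe1 and 17.2% higher in ddm1nrpd1. For loci with a ddm1 mean under 1 CPM, these shares were 35.0% and 14.5% of pseudogenes, and 12.2% and 10.998% of protein-coding loci. A lean towards ddm1nrpe1 was thus not particular to the 389 loci, with no test between sets. The median log2 difference of ddm1nrpd1 from ddm1nrpe1 over 388 loci was -0.20, against -0.01 over all loci. The mean was higher in ddm1nrpd1 at 155 of the 389 loci. Over the 389 loci, the mean levels in ddm1nrpd1 and ddm1nrpe1 had a Spearman rho of 0.684, those in ddm1nrpd1 and ddm1cmt2 0.150 and those in ddm1nrpe1 and ddm1cmt2 0.186. These values are descriptions across loci, which share libraries and, through locus length, part of their level in every genotype. The ddm1cmt2 levels rest on a median of 13 counts per locus, against 79 in ddm1nrpd1 and 88 in ddm1nrpe1. The part of counting error in the lower values with ddm1cmt2 was not tested.

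Among the loci higher in ddm1nrpe1 were 3 of the 5 loci with the highest means in that genotype. The others, AT1TE43225 and AT2TE22245, were not called (adjusted p = 0.65 and 0.13; the latter 0.037 without ddm1nrpe1 replicate 1). AT4TE17500, on chromosome 4, held 45.1, 43.3 and 42.4 CPM in ddm1nrpe1, 15.2, 15.2 and 13.1 CPM in ddm1nrpd1 and 0.402, 0.484 and 0.540 CPM in ddm1cmt2. The 3 genotypes did not overlap, and the log2 difference of ddm1nrpd1 from ddm1nrpe1 was -1.59 ± 0.10 (adjusted p = 3.8e-07). AT4TE17505, the next identifier on the same chromosome, held 37.3, 33.9 and 33.8 CPM in ddm1nrpe1, 10.1, 15.5 and 13.4 CPM in ddm1nrpd1 and 0.201, 0.423 and 0.630 CPM in ddm1cmt2. It had the same order of genotypes and a log2 difference of -1.42 ± 0.15 (adjusted p = 2.2e-05). AT5TE47395 held 24.0, 23.5 and 23.7 CPM in ddm1nrpe1 against 8.62, 5.10 and 4.85 CPM in ddm1nrpd1, a log2 difference of -1.95 ± 0.19 (adjusted p = 9.9e-06), and no ddm1cmt2 library exceeded 0.540 CPM.

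At some loci ddm1nrpd1 lay much closer to ddm1cmt2 than to ddm1nrpe1. AT1TE47340 held 23.2, 20.8 and 17.7 CPM in ddm1nrpe1, 2.02, 1.65 and 1.44 CPM in ddm1nrpd1 and 0.804, 0.967 and 1.44 CPM in ddm1cmt2. Its log2 difference of ddm1nrpd1 from ddm1nrpe1 was -3.59 ± 0.18 (adjusted p = 9.3e-08), and ddm1nrpe1 was 4.26 ± 0.21 above ddm1cmt2 on that scale (adjusted p = 6.6e-09). AT5TE42380 held 15.4, 12.1 and 12.4 CPM in ddm1nrpe1 and 1.43, 1.61 and 1.90 CPM in ddm1nrpd1, with a difference of -3.01 ± 0.17 (adjusted p = 2.2e-07). AT2TE21360 held 17.5, 8.98 and 11.4 CPM in ddm1nrpe1 and 1.72, 1.61 and 1.84 CPM in ddm1nrpd1, with a difference of -2.87 ± 0.24 (adjusted p = 4.0e-06). The ddm1nrpe1 libraries lay above all others at each of these loci. At each of them ddm1nrpd1 was also called higher than ddm1cmt2, by smaller log2 differences. These were 0.67 at AT1TE47340 (adjusted p = 0.049), 1.12 at AT5TE42380 (adjusted p = 0.0029) and 1.09 at AT2TE21360 (adjusted p = 0.022). The ddm1cmt2 means were 0.760 CPM at AT5TE42380 and 0.807 CPM at AT2TE21360. AT5TE41430, with no count in ddm1, held 3.62, 4.11 and 2.96 CPM in ddm1nrpe1 and 0, 0.269 and 0.328 CPM in ddm1nrpd1 (-4.07 ± 0.45, adjusted p = 2.9e-05). The other loci with the largest differences in this direction were AT2TE16445 (-4.65, and -5.97 without ddm1nrpd1 replicate 3), AT1TE51745 (-4.00), AT4TE17970 (-3.21) and AT4TE14245 (-3.01), all with ddm1nrpe1 means under 3 CPM.

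The 8 named loci with the largest fold changes of ddm1nrpd1 over ddm1nrpe1 held at most 5.29 CPM in any ddm1nrpd1 library. AT1TE55920 held 5.29, 3.87 and 3.35 CPM in ddm1nrpd1, 0.525, 0.329 and 0.431 CPM in ddm1nrpe1 and 0.201, 0.242 and 0.270 CPM in ddm1cmt2. All ddm1nrpd1 libraries lay above all others, and the log2 difference from ddm1nrpe1 was 3.26 ± 0.28 (adjusted p = 4.4e-06). AT3TE65015 held 2.56, 2.53 and 1.97 CPM in ddm1nrpd1, 0.701, 0.657 and 0.646 CPM in ddm1nrpe1 and no count in ddm1cmt2. The 3 genotypes were separate there, with a difference of 1.82 ± 0.26 between the polymerase mutants (adjusted p = 0.00045). AT2TE13445 held 2.67, 3.34 and 1.97 CPM in ddm1nrpd1 and 0.701, 0.931 and 0.700 CPM in ddm1nrpe1 (1.79 ± 0.27, adjusted p = 0.00029). Other named loci of this direction were AT3TE39220 (2.32), whose values are given with the loci higher in ddm1cmt2, and AT2TE21925 (3.37, and 4.82 without ddm1nrpe1 replicate 2), AT5TE47220 (2.95, and 3.74 without ddm1nrpe1 replicate 1), AT5TE34040 (2.21) and AT4TE14085 (2.01). No ddm1nrpd1 library of these 5 loci exceeded 2.23 CPM.

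A few loci had the opposite order, with ddm1cmt2 above the polymerase mutants. AT2TE54780 held 5.33, 2.90 and 3.06 CPM in ddm1cmt2, 0.594, 0.307 and 0.0656 CPM in ddm1nrpd1 and 0, 0.0548 and 0.0539 CPM in ddm1nrpe1. Its ddm1 libraries held 0, 0 and 0.0961 CPM, so ddm1cmt2 alone stood apart. The log2 difference of ddm1nrpd1 from ddm1cmt2 was -3.47 ± 0.44 (adjusted p = 3.6e-05; -4.06 without ddm1nrpd1 replicate 1), and the ratio of ddm1cmt2 to ddm1nrpe1 was 96.9 (counting interval 26.3 to 808, adjusted p = 4.7e-06). AT2TE16955 held 3.52, 4.17 and 2.97 CPM in ddm1cmt2, 0.0594, 0.153 and 0.262 CPM in ddm1nrpd1 and 0.175, 0.767 and 0.431 CPM in ddm1nrpe1. Its ddm1 libraries were uneven, at 0.221, 1.62 and 0.0961 CPM, and all lay below ddm1cmt2. The differences from ddm1cmt2 were -4.47 ± 0.45 in ddm1nrpd1 (adjusted p = 4.9e-06) and -2.94 ± 0.38 in ddm1nrpe1 (adjusted p = 3.5e-05).

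AT3TE90545 held 1.31, 1.75 and 1.26 CPM in ddm1cmt2 and at most 0.221 CPM in any other library. Its differences from ddm1cmt2 were -3.52 ± 0.45 in ddm1nrpd1 and -3.25 ± 0.44 in ddm1nrpe1 (adjusted p = 3.7e-05 and 5.6e-05). AT2TE26785, at 1.51, 1.45 and 1.17 CPM in ddm1cmt2, was also higher there than in ddm1nrpd1 (-1.30 ± 0.33, adjusted p = 0.0059) and ddm1nrpe1 (-1.45 ± 0.34, adjusted p = 0.0032). Against ddm1nrpd1, AT1TE25645 (-2.10) and AT4TE13150 (-1.96) were higher in ddm1cmt2. AT4TE13560 (-1.16) and AT4TE18015 (-1.14, and -1.86 without ddm1nrpd1 replicate 2) were called too. AT4TE13560 missed the threshold without ddm1nrpd1 replicate 1 (-1.15) or 2 (-0.89) and without ddm1cmt2 replicate 2 (-1.01) or 3 (-1.13), and AT4TE18015 without ddm1nrpd1 replicate 1 (-1.003) or 3 (-0.86) and without ddm1cmt2 replicate 1 (-0.99) or 2 (-1.15). Against ddm1nrpe1, AT5TE52795 (-2.41), AT2TE10955 (-2.27, and -2.97 without ddm1nrpe1 replicate 2), AT3TE39220 (-2.23) and AT5TE38370 (-1.49) were higher in ddm1cmt2. AT3TE39220 was low in ddm1nrpe1 alone among the double mutants: it held 0.409, 0.438 and 0.323 CPM there, 2.14, 1.65 and 2.23 CPM in ddm1nrpd1 and 2.31, 1.27 and 2.16 CPM in ddm1cmt2.

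The highest ddm1cmt2 means also included loci with more than 1 CPM in all libraries of all 3 double mutants. AT1TE52160 held 10.4, 13.7 and 13.7 CPM in ddm1nrpe1, 5.41, 4.57 and 4.13 CPM in ddm1nrpd1 and 2.61, 2.36 and 3.33 CPM in ddm1cmt2, with no overlap between these genotypes. AT1TE41575 held 8.20, 7.60 and 5.12 CPM in ddm1nrpd1, and its ddm1nrpe1 libraries (3.44, 3.23 and 4.58 CPM) overlapped its ddm1cmt2 libraries (3.22, 3.57 and 1.17 CPM). The double mutants lay closer together at AT5TE45920, at 2.67, 1.73 and 2.62 CPM in ddm1nrpd1, 2.04, 2.14 and 2.21 CPM in ddm1nrpe1 and 3.52, 3.45 and 3.51 CPM in ddm1cmt2. The next identifier, AT5TE45925, had the same order, with ddm1cmt2 libraries at 1.71, 1.57 and 2.07 CPM above ddm1nrpd1 (1.37, 0.959 and 1.38 CPM) and ddm1nrpe1 (0.934, 1.096 and 0.970 CPM). The difference of ddm1nrpd1 from ddm1cmt2 was not called at AT5TE45925 (-0.55, adjusted p = 0.096). At AT5TE45920 it was called (-0.60, adjusted p = 0.030), but missed the threshold without ddm1nrpd1 replicate 2 (-0.40) or any ddm1cmt2 replicate. The difference of ddm1nrpe1 was called at AT5TE45920 (-0.71) and AT5TE45925 (-0.82). At AT5TE45925 it missed the threshold without ddm1nrpe1 replicate 1 (-0.77) or ddm1cmt2 replicate 3 (-0.70).

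**Figure D4:**
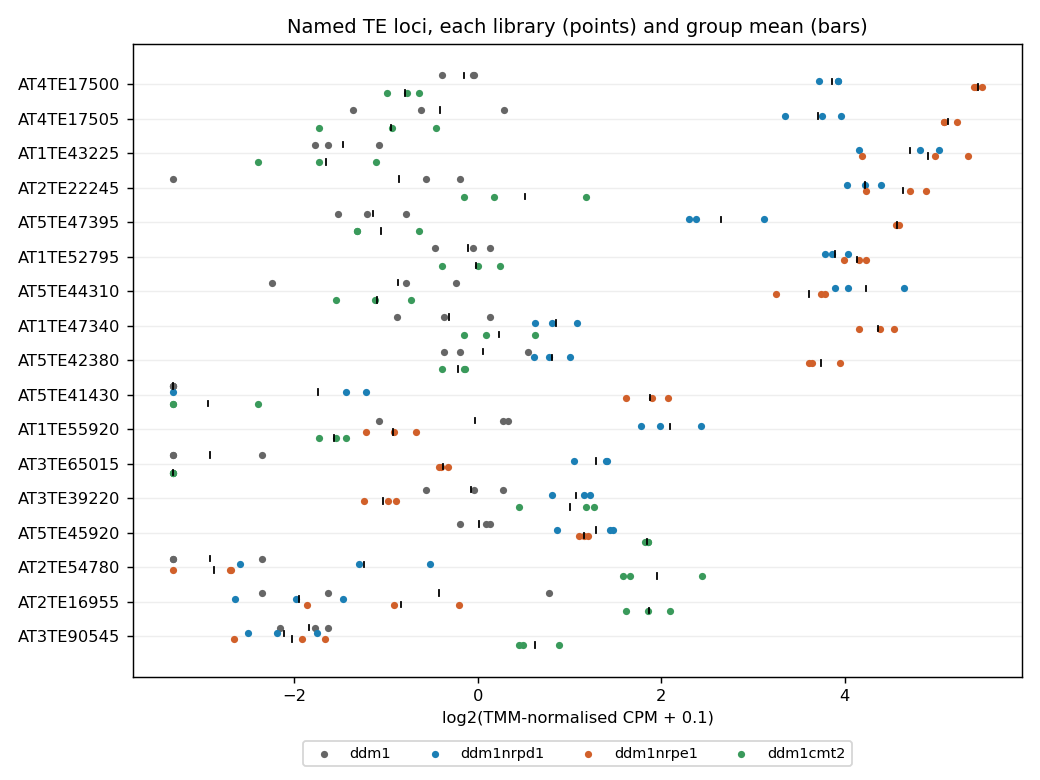
Levels of 17 named TE loci in every library, as log2(TMM-normalised CPM + 0.1) on the horizontal axis; points are the 3 libraries of a genotype in its colour and short black bars are group means. Most of the upper loci have ddm1nrpd1 and ddm1nrpe1 far to the right of ddm1 and ddm1cmt2, AT1TE47340 and AT5TE42380 have ddm1nrpe1 alone far to the right, and the lowest 3 loci have ddm1cmt2 alone on the right.

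No count at all was found in ddm1 at 18 of the loci, and in ddm1nrpd1, ddm1nrpe1 and ddm1cmt2 at 2, 6 and 15 loci. The shallower ddm1 libraries put its floor of 3 counts at 0.109 CPM, so a locus at 0 there may still be transcribed below that level. Of the 18 loci, picked out here for that value, AT4TE18270 had the highest bound: it held 4.03, 4.77 and 6.03 CPM in ddm1nrpe1, 1.07, 0.875 and 0.459 CPM in ddm1nrpd1 and 0.101, 0.0604 and 0.180 CPM in ddm1cmt2. Against the ddm1 floor, ddm1nrpe1 was at least 45.3-fold and ddm1nrpd1 at least 7.37-fold higher. AT4TE21910 was at least 22.1-fold higher in ddm1nrpd1 and at least 11.3-fold in ddm1nrpe1, and AT5TE41245 at least 19.8-fold in ddm1nrpd1 and 17.7-fold in ddm1nrpe1. AT4TE18700 was at least 22.1-fold higher in ddm1nrpe1, and AT4TE16540 at least 12.6-fold in ddm1nrpd1. AT3TE02890 had no count in any of the 12 libraries.

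The loci were spread over the 5 chromosomes much as other TE loci were. There were 80, 77, 77, 70 and 85 of them on chromosomes 1 to 5, which is 22.0%, 18.0%, 18.9%, 21.1% and 21.0% of the TE loci listed for each. Identifier numbers run in order along a chromosome, and on chromosome 1 the middle 50% of the loci had numbers from 44235 to 51990, against 45145 to 52950 for the other TE loci, in a range that ended at 98440. On chromosome 5 the numbers ran from 39100 to 46320, against 39590 to 46485. Families, positions and sequences of the loci were not used here.

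An identifier 5 numbers away, the usual step between neighbours, belonged to another of the 389 loci for 54 of them, which form 28 pairs. In 17 of these pairs both loci reached 1 CPM in the same double mutants, and in 26 the difference between ddm1nrpe1 and ddm1nrpd1 had the same sign. The log2 ratio of ddm1nrpe1 to ddm1nrpd1 had a Pearson r of 0.861 over the 28 pairs, as a description, since neighbours may lie on 1 transcript or share reads. Counts identical to those of another locus in all 12 libraries were found at 6 of the loci: AT2TE10735 with AT2TE10740, AT4TE16640 with AT4TE16645, AT4TE10320 with the gene locus AT4G04410, and AT3TE02890 with AT4G16590, both at 0. The sources used here do not say whether strand was used or how reads that match several TE copies were counted, which makes the values of near-identical copies, overlapping genes and antisense transcripts uncertain.

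Among 36 genes of the silencing pathways, ROS1 had the largest difference between double mutants. Of the genes, which act in RNA-directed DNA methylation, DNA methylation and related silencing, 4 were higher in ddm1nrpd1 than in ddm1cmt2 and 12 were lower, with a median log2 fold change of -0.12, beside 25.2% and 24.2% of all tested loci. In ddm1nrpe1 4 were higher and 12 lower than in ddm1cmt2, with a median of -0.29, beside 27.9% and 26.4%. Between the polymerase mutants, 10 were higher in ddm1nrpd1 and 2 higher in ddm1nrpe1, with a median of 0.10, beside 16.8% and 17.8%. These counts include NRPD1, NRPE1 and CMT2, each called higher in the double mutant named for it than in the other double mutants. ROS1, a DNA glycosylase that removes methylated cytosine, had a mean of 42.3 ± 4.0 CPM (SD, n = 3) in ddm1, 35.8 ± 6.7 in ddm1cmt2, 2.66 ± 0.68 in ddm1nrpd1 and 2.26 ± 0.83 in ddm1nrpe1. It was lower than in ddm1cmt2 by a log2 difference of -3.77 ± 0.24 (adjusted p = 2.0e-07) in ddm1nrpd1 and -3.98 ± 0.24 (adjusted p = 1.3e-07) in ddm1nrpe1. RDM1, a factor of RNA-directed DNA methylation, was higher in both (0.98 and 1.06), and RDR2, the RNA-dependent RNA polymerase that works with polymerase IV, was lower in both (-0.75 and -0.79). SUVH6, a histone H3 lysine methyltransferase, was lower as well (-0.77 and -0.94).

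Transcripts of the mutated genes were present in every genotype. NRPD1 stood at 14.3 ± 0.76 CPM (SD, n = 3) in ddm1nrpd1 and at 5.76 ± 1.3, 4.46 ± 0.91 and 4.61 ± 1.1 CPM in ddm1, ddm1nrpe1 and ddm1cmt2. NRPE1 stood at 58.3 ± 5.9 CPM in ddm1nrpe1 and at 13.1 ± 1.0, 8.01 ± 1.8 and 11.7 ± 2.0 CPM in ddm1, ddm1nrpd1 and ddm1cmt2. Each of these genes was thus highest in the mutant named for it (log2 differences from ddm1cmt2 of 1.60 ± 0.18 and 2.30 ± 0.16, adjusted p = 1.4e-05 and 1.8e-07). CMT2 stood at 26.6 ± 0.93 CPM in ddm1cmt2 and at 32.0 ± 3.1, 20.7 ± 2.9 and 16.9 ± 0.98 CPM in ddm1, ddm1nrpd1 and ddm1nrpe1, and DDM1 between 11.8 and 16.0 CPM in all 4. The sources used here do not say where the lesions lie in these genes, and transcript levels therefore do not check the labels.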

How the data were processed

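PolyA RNA of 12 seedling libraries, 3 per genotype, was used. The other 30 samples of the series were not used. The authors deposited raw read counts per locus and, beside them, CPM values, which, checked against the counts, are each count over its library's total on a common scale. Per the submitters' processing notes, the tools were deepTools, SAMtools, Picard, BSMAP, Bowtie2, edgeR, HTSeq, TopHat and Trimmomatic with the TAIR10 build, and the sources used here state neither their roles nor their versions.

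Members were picked with the deposited CPM and tested on the counts with edgeR 4.0.16 in R 4.3.3 (TMM, filterByExpr with a minimum count of 10, robust glmQLFit, 6 residual degrees of freedom) over the 9 double-mutant libraries. The ddm1 libraries were left out of the fit and the filter because they had chosen the members. Gene classes and symbols come from a RefSeq table of assembly TAIR10.1. The fit was tested on simulated data. Named loci are, per comparison and direction, up to 8 called members with the largest fold change, a mean of at least 1 CPM in the higher genotype and no overlap of libraries, the 5 with the highest mean in each double mutant, the 5 highest in ddm1cmt2 among those above both other double mutants, and 3 on each side of the threshold. AT4TE18270 and the other loci at 0 in ddm1 were chosen after their values were seen. Members, threshold and gene lists were chosen with earlier results of these data known. Alternatives were DESeq2 1.42.0, RLE scaling, other count filters, all 12 libraries, the 6 libraries of a comparison alone, a replicate block, a threshold of 0.5 CPM, nuclear loci alone, and leaving out each library. Intervals and floors cover counting error only. Libraries of a genotype had Pearson correlations of 0.978 to 0.994 and differed by more than counting error, so none was taken as a duplicate.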

Additional observations from a re-analysis of the deposited data

How the results depend on the processing

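Choosing the members by a ddm1 mean under 0.5 CPM left 218 loci and fewer calls by construction: 20 higher in ddm1nrpd1 and 56 higher in ddm1nrpe1 between the polymerase mutants, 151 higher in ddm1nrpd1 and 3 higher in ddm1cmt2, and 165 higher in ddm1nrpe1 and 5 higher in ddm1cmt2. Their shares of counts were 0.00504% in ddm1 and 0.00620% in ddm1cmt2, against 0.0443% in ddm1nrpd1 and 0.0573% in ddm1nrpe1. The ddm1 share of the 389 loci was 0.0181% of nuclear counts and 0.0173% by TMM-normalised CPM, moves larger than its SD. Leaving out single libraries gave 31 to 48 and 86 to 122 calls between the polymerase mutants, 239 to 259 and 10 to 17 for ddm1nrpd1 against ddm1cmt2, and 274 to 288 and 14 to 19 for ddm1nrpe1 against ddm1cmt2. DESeq2 called 38 and 95, 250 and 11, and 280 and 13. Replicate numbers did not pair the libraries across all genotypes. Over 18 same-numbered pairs the deviations from the group means had correlations from -0.337 to 0.266, with a median of -0.0434, and 3 were over 0.1. Over 36 differently numbered pairs they ran from -0.258 to 0.278, with a median of -0.0167, and 11 were over 0.1. Between ddm1nrpd1 and ddm1nrpe1, the same-numbered values were 0.225, -0.0307 and 0.266 for replicates 1, 2 and 3. Between replicates 1 and 3 of these genotypes they were -0.243 and -0.258. With the number as a replicate block, the calls were 37 and 104, 249 and 13, and 282 and 15. Among the alternatives of the named loci 1544 kept the call and the direction, 41 fell short of the threshold, 2 passed it, and 4 changed sign. These 4 were differences between ddm1nrpd1 and ddm1nrpe1 that were not called: leaving out single libraries, AT1TE43225 ran from -0.46 to 0.0916, AT5TE45920 from -0.00726 to 0.31 and AT5TE41245 from -0.17 to 0.37. Fitted fold changes of several loci with 0 to 3 counts in a genotype moved by over 1.5 times when a library was left out, such as AT3TE51910 in ddm1nrpe1 against ddm1cmt2 (8.23, and 11.24 without ddm1cmt2 replicate 2). Low counts limit the ddm1 and ddm1cmt2 values, with a median of 12 and 13 counts per locus over 3 libraries, against 79 in ddm1nrpd1 and 88 in ddm1nrpe1.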

Other observations

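The libraries of a genotype differed widely at few of the loci. Among loci with a mean of at least 1 CPM, some had a highest library at least 3 times the lowest. These were 3 of 261 loci in ddm1nrpd1, 1 of 282 in ddm1nrpe1 and 5 of 52 in ddm1cmt2, the largest part. AT5TE35950 held 1.07, 5.68 and 5.31 CPM in ddm1nrpd1 and 2.86, 3.07 and 7.43 CPM in ddm1nrpe1, and AT3TE51910 had its lowest ddm1nrpd1 library at 1.37 and its highest at 9.45 CPM. AT5TE35950 was called higher in ddm1nrpd1 than in ddm1cmt2, where 1 library held its only count (adjusted p = 0.0031 by edgeR's quasi-likelihood test), with a ratio of 160 and a counting interval of 28.4 to 6334. Its fitted log2 fold change of 6.90 was 9.16 without ddm1cmt2 replicate 1 and 6.22 without ddm1cmt2 replicate 2.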
